A study of Mus musculus with 6 samples.

Results

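The clathrin adaptor and transferrin receptor endocytosis genes are 10 genes, Ap2a1, Ap2a2, Ap2b1, Ap2m1, Ap2s1, Clta, Cltc, Picalm, Dnm2 and Exoc6. They were followed through every probe set of the array that is annotated to 1 of these symbols and to no other. This gave 22 probe sets for 9 of the 10 genes, out of 20380 probe sets with 1 symbol for 12393 genes. Picalm, a clathrin assembly protein, was not analysed here. The set was chosen with the contrast of mutant against wild type arrays in view, and with it how far the probe sets of a gene agreed. The differences of these genes between the groups are therefore a description without a test.

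The samples were erythroblasts, the nucleated precursors of red cells, sorted from FVB/N mouse bone marrow on CD71, the transferrin receptor. There were 3 samples labelled wild type and 3 mutant RPS19 samples from mice with a transgene for the R62W form of this small ribosomal subunit protein. RPS19 is often mutated in Diamond-Blackfan anaemia, the failure of red cell production named in the series title. Total RNA was hybridised to 1 Affymetrix array per sample, and the values are on the log2 scale, so that a difference of 1 is a doubling. The sources used here do not give the promoter of the transgene, the founder lines or the age of the mice. Whether each sample is an animal of its own is not labelled, so the p-values below measure only the spread between these arrays, which may be technical. The wild type descriptions share a tag, whereas each mutant description has a tag of its own.

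Erythroblasts take up nearly all the iron for haem through the transferrin receptor. Iron-loaded transferrin binds the receptor at the cell surface, and the adaptor complex AP-2 recognises the cytosolic tail of the receptor and recruits clathrin, which bends the membrane into a coated pit. AP-2 is built of an alpha chain (Ap2a1 or Ap2a2), a beta chain (Ap2b1), a mu chain that binds the sorting signal of the cargo (Ap2m1) and a small sigma chain (Ap2s1). Clathrin is built of heavy chains (Cltc) and light chains (Clta or Cltb). Dynamin, encoded by Dnm2 in most tissues, pinches the pit off, and iron is released in the acidified endosome. The receptor then returns to the surface, a step that in erythroid cells needs the exocyst subunit Exoc6, which is defective in the anaemic haemoglobin-deficit mouse.

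The 250 bases upstream of the annotated start of 4 of these genes are shown for context, from RefSeq on build GRCm38.p6, each 5′ to 3′ on the plus strand. Ap2b1 (chr11:83302447-83302696) and Ap2a2 (chr7:141561930-141562179) hold the probe sets with the largest differences below. Clta (chr4:44004193-44004442, upstream of the first of 2 starts listed) and Exoc6 (chr19:37550168-37550417) are the members whose window holds the letters AGATAA, which GATA factors can bind. Capitals mark matches on either strand to these letters, to the CCAAT box, to the E-box letters CACGTG or to CCACACCC, a box of the kind that KLF1 binds. None of the matches in these 4 windows overlaps another.
Ap2b1: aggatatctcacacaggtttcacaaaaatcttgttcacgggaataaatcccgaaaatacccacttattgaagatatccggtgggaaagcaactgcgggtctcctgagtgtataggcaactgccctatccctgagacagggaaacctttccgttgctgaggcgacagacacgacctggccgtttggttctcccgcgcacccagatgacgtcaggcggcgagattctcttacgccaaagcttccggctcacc
Ap2a2: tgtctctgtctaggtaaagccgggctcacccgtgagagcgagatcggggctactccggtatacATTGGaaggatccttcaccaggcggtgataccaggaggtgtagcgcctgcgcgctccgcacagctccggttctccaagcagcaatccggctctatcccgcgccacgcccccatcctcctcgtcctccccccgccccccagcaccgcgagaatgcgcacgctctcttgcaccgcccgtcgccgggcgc
Clta: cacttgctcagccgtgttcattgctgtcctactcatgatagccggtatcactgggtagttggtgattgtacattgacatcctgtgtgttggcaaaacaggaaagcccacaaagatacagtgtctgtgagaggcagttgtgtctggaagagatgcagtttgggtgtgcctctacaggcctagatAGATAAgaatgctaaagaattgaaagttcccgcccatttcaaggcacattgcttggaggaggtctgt
Exoc6: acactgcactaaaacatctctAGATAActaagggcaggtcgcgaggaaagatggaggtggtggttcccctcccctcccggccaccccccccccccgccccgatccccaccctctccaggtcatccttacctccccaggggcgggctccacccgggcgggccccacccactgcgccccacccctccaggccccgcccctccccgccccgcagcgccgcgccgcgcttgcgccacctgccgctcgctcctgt
All 10 genes had an entry, with 11 windows in all. The GATA letters stood in 2 of the 11 windows and in 9.99% of all 32851 windows of this length. The CCAAT box stood in 4 of 11 against 33.8%, the E-box in 2 against 6.02% and the KLF1 box in 0 against 3.20%. A match is a string of letters and not a shown binding site, and no binding was measured here.

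The table held 22690 probe sets, of which 64 are array controls, and the array medians over the others ran from 5.34 to 5.40. The mutant arrays lay further apart than the wild type arrays. The SD of the log2 difference between a pair of arrays was 0.143 to 0.186 within wild type, 0.345 to 0.503 within mutant and 0.382 to 0.429 between the groups. Spiked bacterial control transcripts read 8.74 to 8.77 on the wild type arrays and 11.58 to 13.47 on the mutant arrays. The 3' minus 5' value of the actin controls, a sign of RNA or labelling quality, was 1.26 to 1.37 in wild type and 1.58 to 1.88 in mutant samples. For the Gapdh controls it was -0.09 to -0.05 and 0.25 to 0.31, so that the groups were apart on both. For the transferrin receptor controls it was 1.67 to 1.78 and 1.63 to 1.88, and the groups overlapped. Since the spiked, actin and Gapdh controls went with the groups, sample processing and genotype cannot be told apart in the differences below. The Y-linked gene Eif2s3y read 8.34 on mutant array 3 and 2.23 to 2.45 on the other arrays.

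Of 14 erythroblast markers 10 were measured, and 12 of their 15 probe sets read above the table's median probe set level of 5.37 on all 6 arrays. Their mean was 9.01 to 9.04 on the wild type arrays and 8.43, 8.88 and 9.05 on mutant arrays 1, 2 and 3. A probe set each of Tfrc (difference -1.10), Slc4a1 (-1.74) and Hbb-b2 (0.75) passed an adjusted p of 0.05 (limma), where 2.33% of all probe sets passed. The other probe sets of Slc4a1, both brighter, differed by -0.03 and 0.09. Over the 12 erythroblast probe sets that did not pass, the mean was 9.24 to 9.29 in wild type and 8.75, 9.24 and 9.44 in the mutant. On mutant array 1, 11 of the 15 were below every wild type array. On mutant array 3, 8 were above and 5 below. All 9 neutrophil marker probe sets were also above 5.37 on every array, with a mean of 10.83 to 10.97 in wild type and 11.64, 10.34 and 9.82 on the mutant arrays. B cell markers (9 probe sets of 7 of 8 genes, 4 of them above 5.37 on every array) averaged 5.39 to 5.45 in wild type and 5.33, 7.19 and 6.35 in the mutant. Megakaryocyte markers (7 probe sets of 6 of 8 genes, 3 above 5.37) averaged 5.16 to 5.22 and then 6.14, 5.51 and 5.47. Macrophage markers (14 probe sets of 8 genes, 5 above 5.37) averaged 6.22 to 6.32 and then 6.31, 6.25 and 5.71. The megakaryocyte mean was above wild type on all 3 mutant arrays, but Vwf was the only 1 of the 7 probe sets past the threshold (higher by 1.48 ± 0.187, log2, SE, adjusted p = 0.015, limma). Without it the mean was 5.30 to 5.36 in wild type and 6.25, 5.41 and 5.36 in the mutant, and 3 of the 7 probe sets on mutant array 3 were below every wild type array. The mutant arrays also went in different directions for erythroblast, neutrophil and B cell markers, and the part of these markers in the results below was not tested. Fewer cells of a type and less RNA per cell cannot be told apart in such bulk samples.

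**Figure D1:**
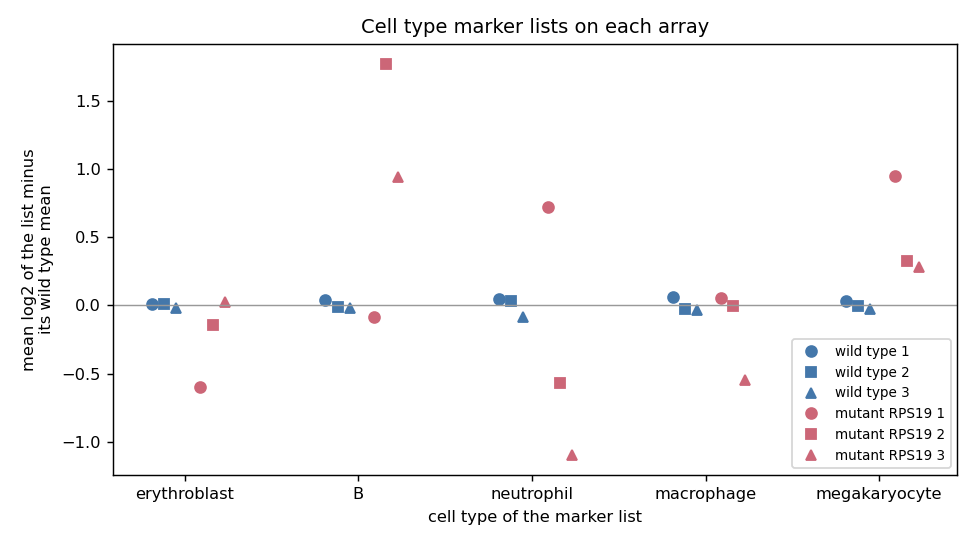
Mean log2 value of each cell type marker list on each array, minus the list's wild type mean, with blue symbols for wild type and red for mutant RPS19 arrays. The wild type arrays lie together, while mutant array 1 is lowest for erythroblast and highest for neutrophil and megakaryocyte markers, and mutant arrays 2 and 3 are highest for B cell markers.

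Across the 22 probe sets the endocytosis genes did not shift as a group. The mutant mean was higher for 10 probe sets and lower for 12, and the median difference was -0.02, against -0.01 over all 22626 probe sets tested. For 20 of the 22 the difference was smaller than 0.5 in size. The exceptions were the brighter probe set of Ap2b1, lower by more than 1 on the log2 scale, and a probe set of Ap2a2. These were also the 2 probe sets past an adjusted p of 0.05 in the limma fit over the whole table, 1 lower and 1 higher, where 2.33% of all probe sets passed (1.39% lower and 0.941% higher). Since the members were chosen on this contrast, nothing is read from that count. It was 0 without wild type replicate 1 or 2, where 0.172% and 0.159% of all probe sets passed. In these fits 5 and 4 of the 22 had an unadjusted p under 0.05 (limma), as had 2905 and 2647 of all 22626. The count passing the adjusted p was 1 (Ap2b1) without wild type replicate 3 or mutant replicate 2, against 0.212% and 0.897% of all. It was 4 without mutant replicate 1 and 2 without mutant replicate 3, against 11.2% and 3.65% of all.

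All mutant arrays lay on the same side of all wild type arrays for 9 of the 22 probe sets, 4 higher and 5 lower, and this held for 26.1% of all probe sets (11.4% higher and 14.7% lower). The SD among the mutant arrays was the larger for 16 of 22, and for 76.7% of all probe sets. Its median over the 22 was 0.150, against 0.0822 among the wild type arrays. Mutant array 1 was the lowest of the 3 mutant arrays for 14 of the 22, and the lowest of all 6 for 10. Over the whole table these shares were 42.1% and 28.3%. Of the 22 probe sets 21 lay above the table's median level, and the exception was a dim probe set of Dnm2.

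**Figure D2:**
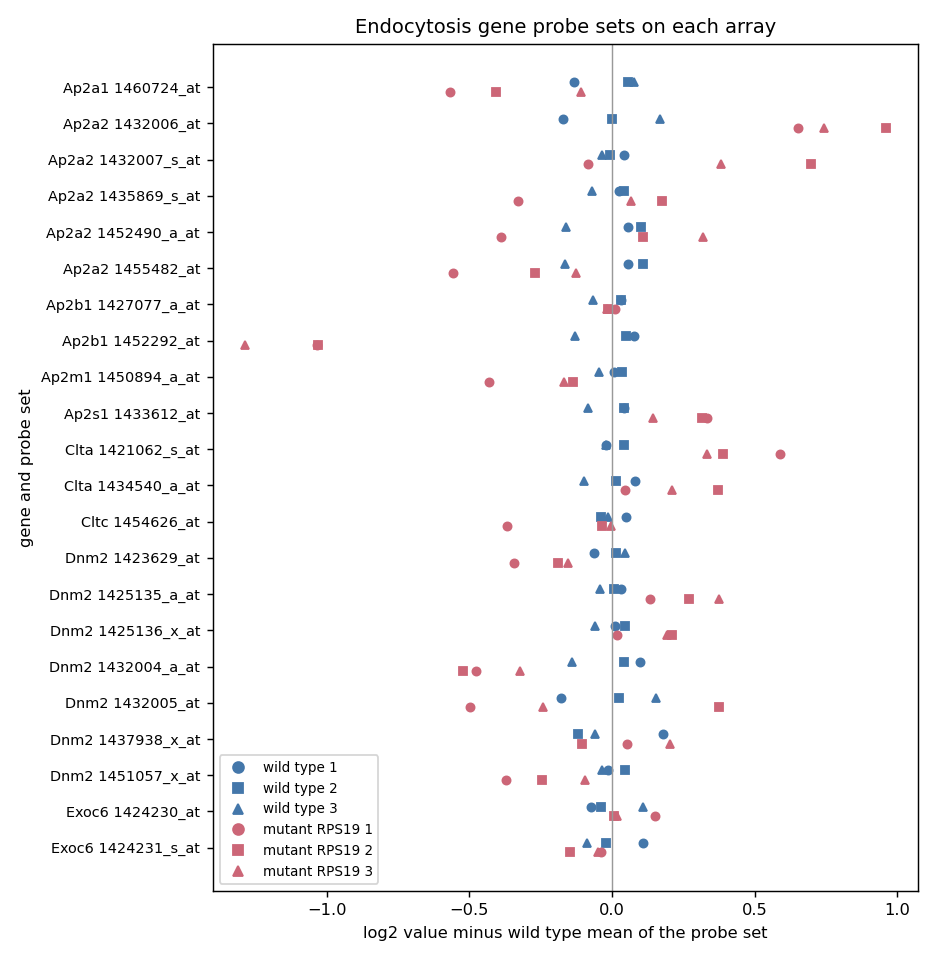
Log2 value of each of the 22 probe sets on each of the 6 arrays, minus the wild type mean of that probe set, with a row per probe set. Ap2b1 1452292_at stands apart on the left and Ap2a2 1432006_at on the right, and the second Ap2b1 probe set lies at 0 on all arrays.

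Ap2b1, the beta chain of AP-2, held the largest difference, but its 2 probe sets disagreed. Its brighter probe set, 1452292_at, read 7.74, 7.71 and 7.53 on wild type arrays 1 to 3 and 6.62, 6.63 and 6.37 on mutant arrays 1 to 3. The mutant arrays were all lower and close together, with means of 7.66 ± 0.113 in wild type and 6.54 ± 0.147 in mutant samples (SD, n = 3 each). The difference was -1.12 ± 0.115 (log2, SE), a mutant level of 0.461-fold, and it ran from -1.18 to -1.03 when any 1 array was left out. The second probe set, 1427077_a_at, is annotated to the same source sequence and read 6.90, 6.90 and 6.80 in wild type and 6.88, 6.86 and 6.85 in mutant samples. Here the groups overlapped and the difference was -0.01 ± 0.0870. A suffix _a_at marks probes that match several transcripts of a gene. The gap between the 2 probe sets was 1.11, where the median gap over the 3057 genes with 2 probe sets was 0.195, and 0.818% of those genes had a gap at least as wide. Since the genes were chosen with the agreement of their probe sets in view, this share is a description and no test. The mean over both probe sets differed by -0.56 ± 0.0895. Neither probe set was higher, although the sign of the second turned without wild type replicate 1 or 2 (0.0095 in each). No probe position was at hand to say which part of the transcript each reads. Ap2b1 alone of the 9 genes was called in a fit on the brightest probe set of each gene, where 0.331% of 12393 genes were called. None of the 9 was called on the mean of a gene's probe sets, where 0.379% of genes were. On that mean 5 of the 9 had an unadjusted p under 0.05 (limma), as had 2107 of the 12393 genes.

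Ap2a2, an alpha chain, was read by 5 probe sets that did not share a sign. Their differences spanned 1.10, about as wide as the gap of 1.11 between the probe sets of Ap2b1. The dimmest, 1432006_at, read 5.48, 5.65 and 5.82 in wild type and 6.30, 6.61 and 6.39 in mutant samples. All mutant arrays were higher, by 0.79 ± 0.129 (log2, SE), or 1.72-fold. Its partner 1432007_s_at, annotated to the same source sequence, read 7.74, 7.70 and 7.67 and then 7.62, 8.40 and 8.09. Mutant arrays 2 and 3 were above all wild type arrays and mutant array 1 below them, and the difference was 0.33 ± 0.187. The suffix _s_at marks probes that match transcripts of more than 1 gene. A second pair from another shared source sequence differed by -0.03 ± 0.143 (1435869_s_at) and -0.32 ± 0.139 (1455482_at), and 1452490_a_at by 0.01 ± 0.186. On 4 of these 5 probe sets, all but the dimmest, mutant array 1 was the lowest of all 6 arrays. The mean over the 5 probe sets differed by 0.16.

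Ap2a1, the other alpha chain, had 1 probe set, which read 6.74, 6.93 and 6.95 in wild type and 6.30, 6.47 and 6.76 in mutant samples. Mutant array 3 lay within the wild type range, and the difference was -0.36 ± 0.138 (log2, SE). Ap2m1, the chain that binds the tyrosine-based signal of the receptor's tail, read 8.95, 8.98 and 8.90 and then 8.51, 8.80 and 8.78. All mutant arrays were lower, mutant array 1 most, with a difference of -0.24 ± 0.110. Ap2s1, the sigma chain, went the other way, with 9.30, 9.30 and 9.18 in wild type and 9.59, 9.58 and 9.41 in mutant samples, all higher by 0.27 ± 0.0994 on average. The adjusted p of Ap2a1, Ap2m1 and Ap2s1 were 0.22, 0.28 and 0.21 (limma), so none passed. The subunits of this complex did not share a direction on these arrays, nor did the probe sets of Ap2a2 among themselves. Signs were mixed for 3 of the 5 members with several probe sets. This also held for 52.8% of the 4956 genes with several probe sets over the table, so nothing is read from it.

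**Figure D3:**
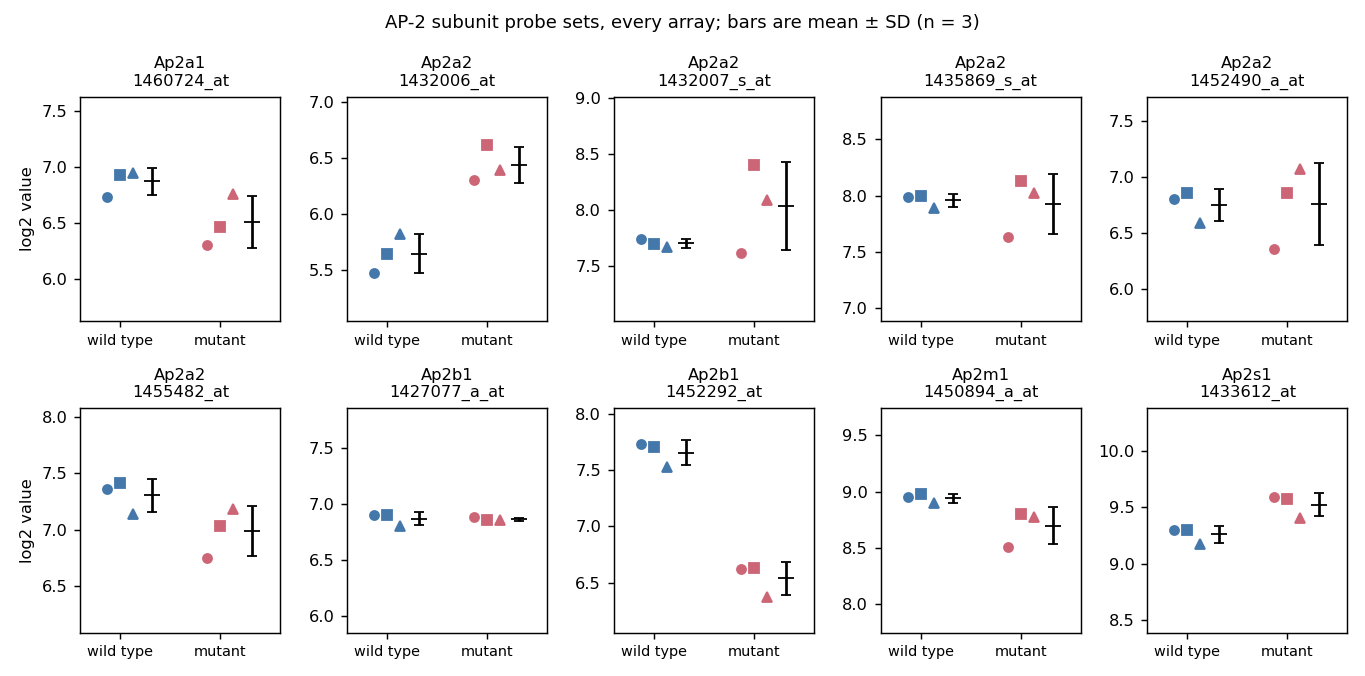
Log2 values of the 10 AP-2 probe sets on every array, each panel spanning 2 log2 units, with symbols for replicates 1 (circle), 2 (square) and 3 (triangle) and the mean ± SD of 3 arrays beside them. The groups are apart for Ap2b1 1452292_at and Ap2a2 1432006_at, and less widely for Ap2m1 and Ap2s1, while the other panels show overlap.

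Of the 9 members measured, the clathrin light chain gene Clta was the only 1 with several probe sets that were all higher in the mutant. Its probe set 1421062_s_at read 10.58, 10.65 and 10.58 in wild type and 11.19, 10.99 and 10.94 in mutant samples. The groups were apart and the difference was 0.44 ± 0.102 (log2, SE), or 1.36-fold. The other, 1434540_a_at, read 9.38, 9.32 and 9.20 and then 9.35, 9.67 and 9.51. Mutant array 1 lay among the wild type arrays here, although it was the highest array of all on the first probe set, and the difference was 0.21 ± 0.115. The heavy chain gene Cltc read 10.61, 10.53 and 10.55 in wild type and 10.20, 10.53 and 10.56 in mutant samples. Mutant array 1 alone was low, and the difference of -0.13 ± 0.121 became -0.02 without it.

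Dnm2, the dynamin that cuts the pit from the membrane, had 7 probe sets, of which 3 were higher and 4 lower in the mutant. The lower ones included 1423629_at, which read 7.87, 7.95 and 7.98 and then 7.59, 7.74 and 7.78, and 1451057_x_at from the same source sequence, which read 7.25, 7.31 and 7.23 and then 6.89, 7.02 and 7.17. For both the groups were apart and the differences alike, at -0.23 ± 0.0965 and -0.24 ± 0.103 (log2, SE). The widest difference was that of 1432004_a_at, with 6.31, 6.25 and 6.07 in wild type against 5.73, 5.69 and 5.89 in mutant samples and -0.44 ± 0.108. Its partner from the same source sequence, 1432005_at, is the dim one and read 3.42 to 3.75 and 3.10 to 3.97. Another pair, 1425135_a_at and 1425136_x_at, was higher by 0.26 ± 0.0991 and 0.14 ± 0.0972. The last, 1437938_x_at, differed by 0.05 ± 0.125, and the suffix _x_at marks probes that can also match other sequences. Over the 7 probe sets the mean difference was -0.08. Probe sets of Dnm2 from 1 source sequence shared their sign in this fit, and over all sources the signs were mixed. For 1432004_a_at and its partner this rests on the dim probe set, at -0.12 ± 0.220. Its sign turned without mutant replicate 1 (0.07) and with array weights (0.13).

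Exoc6, of the vesicle-tethering exocyst, varied little. The probe set 1424230_at read 6.63, 6.66 and 6.81 in wild type and 6.85, 6.71 and 6.72 in mutant samples, and 1424231_s_at, from the same source sequence, read 7.92, 7.79 and 7.72 and then 7.77, 7.66 and 7.76. The groups overlapped on both, and the differences of 0.06 ± 0.0987 and -0.08 ± 0.0966 (log2, SE) were of opposite sign and each smaller than its SE. Of the other exocyst genes and the Ral GTPases that bind the complex, 6 of 11 listed genes were measured, by 13 probe sets. None passed the threshold over all probe sets (5 had an unadjusted p under 0.05 by limma, as had 19.1% of all probe sets), and the median difference was 0.01. The lowest p were those of Exoc4 1422685_at, at 0.36 ± 0.0896 (adjusted p = 0.085), and Exoc1, at 0.29 ± 0.0861 (adjusted p = 0.13). The 5 probe sets of Exoc4 were split, 3 higher and 2 lower.

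Tfrc, the cargo of this route and also the marker on which the cells were sorted, was lower on its 3 probe sets. The probe set 1422966_a_at read 8.97, 8.97 and 8.90 in wild type and 7.73, 7.89 and 7.94 in mutant samples. It fell by 1.10 ± 0.0972 (log2, SE, adjusted p = 0.0039, limma), whereas 1422967_a_at differed by -0.62 ± 0.188 (adjusted p = 0.14) and the brightest, 1452661_at, by -0.34 ± 0.154 (adjusted p = 0.29). The receptor's own control probe sets, which stand outside the fit, read 8.82 to 8.89 at the 3' end in wild type and 7.57 to 8.04 in mutant samples. At the 5' end they read 7.11 to 7.16 and 5.83 to 6.41, so that every mutant array was below every wild type array at both ends. Without wild type replicate 1 or 2 the adjusted p of 1422966_a_at was 0.051 and 0.056.

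The wider pathway was described through 148 further gene symbols listed by their known role, of which 114 were measured, by 245 probe sets. Of these, 4 rose and 2 fell over all probe sets tested, or 2.45%, against 2.33% of the whole table. The mutant mean was higher for 132 and lower for 113, and the median difference was 0.01, against -0.01 over all probe sets. The groups did not overlap for 72 of the 245, 36 in each direction, or 29.4% against 26.1%. The count of 6 was 0 when wild type replicate 1, 2 or 3 was left out, where 0.172%, 0.159% and 0.212% of all probe sets passed. In these fits 38, 31 and 36 had an unadjusted p under 0.05 (limma), as had 2905, 2647 and 2959 of all 22626. Without mutant replicate 2 the count of 6 became 1, a probe set of Rab14 that is none of the 6, against 0.897% of all. Without mutant replicate 3 it was 7, of which 3 are among the 6, against 3.65%. Without mutant replicate 1 it was 35, which include the 6, against 11.2%.

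Among 98 probe sets of 44 coated pit accessory genes, 1 rose and 1 fell. Hip1r, which links coated pits to actin, rose on 1425553_s_at from 5.69, 5.60 and 5.42 to 6.39, 6.38 and 6.11, a difference of 0.73 ± 0.122 (log2, SE, adjusted p = 0.034, limma). Its other probe sets differed by 0.19 and -0.05. Hspa8, the chaperone that strips clathrin from new vesicles, fell on 1420623_x_at from 12.80, 12.83 and 12.80 to 12.33, 12.40 and 12.20, by 0.50 ± 0.0942 (adjusted p = 0.044, and 0.085 after quantile normalisation anew without controls). The other 3 probe sets of Hspa8 differed by -0.11 to -0.32. Aak1, a kinase of the AP-2 mu chain, differed by 0.43 ± 0.124 on its brightest probe set (adjusted p = 0.12), with 4 of 5 probe sets higher. Cltb, the other clathrin light chain, differed by -0.22 ± 0.103 and 0.09 ± 0.115.

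Of 95 probe sets of 43 endosome and recycling genes, 3 rose and 1 fell. Rab5c, a GTPase of the early endosome, rose from 6.86, 7.0 and 7.07 to 7.48, 7.96 and 7.73, by 0.75 ± 0.140 (log2, SE, adjusted p = 0.044, limma, and 0.057 after that renormalisation). Snx6, a sorting nexin of the retromer route, rose on 1451602_at from 5.08, 4.84 and 4.98 to 6.73, 6.08 and 5.90, by 1.27 ± 0.210 (adjusted p = 0.033). On its brighter probe sets, 1429497_s_at and 1425148_a_at, the differences were 0.28 ± 0.228 and 0.14 ± 0.212. Trak1, a motor adaptor, rose on 1428327_at by 0.67 ± 0.109 (adjusted p = 0.032), and its dimmer probe set differed by 0.03. Rab8a, a GTPase of transport to the surface, fell from 8.56, 8.60 and 8.48 to 8.11, 7.83 and 7.86, by 0.61 ± 0.110 (adjusted p = 0.039). Snx3 and Vps35, which act in the recycling of the transferrin receptor, did not pass, with -0.02 ± 0.143 for Snx3 and -0.54 ± 0.121 (adjusted p = 0.068) and -0.11 ± 0.0954 for the probe sets of Vps35. Rab11a, of the recycling endosome, differed by 0.17 ± 0.0924 and -0.05 ± 0.108.

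The other adaptors, AP-1, AP-3 to AP-5 and the GGA proteins, act at the Golgi and endosomes. None of the 39 probe sets of 21 of their genes passed the threshold (8 had an unadjusted p under 0.05 by limma, as had 19.1% of all probe sets). Their median difference was 0.05, with 22 higher and 17 lower. The lowest p were those of Ap3d1, the delta chain of AP-3, which read 8.18, 8.30 and 7.97 in wild type and 8.60, 9.01 and 8.69 in mutant samples (0.62 ± 0.143, adjusted p = 0.074), and of Ap4m1, the mu chain of AP-4 (0.39 ± 0.0931, adjusted p = 0.078).

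**Figure D4:**
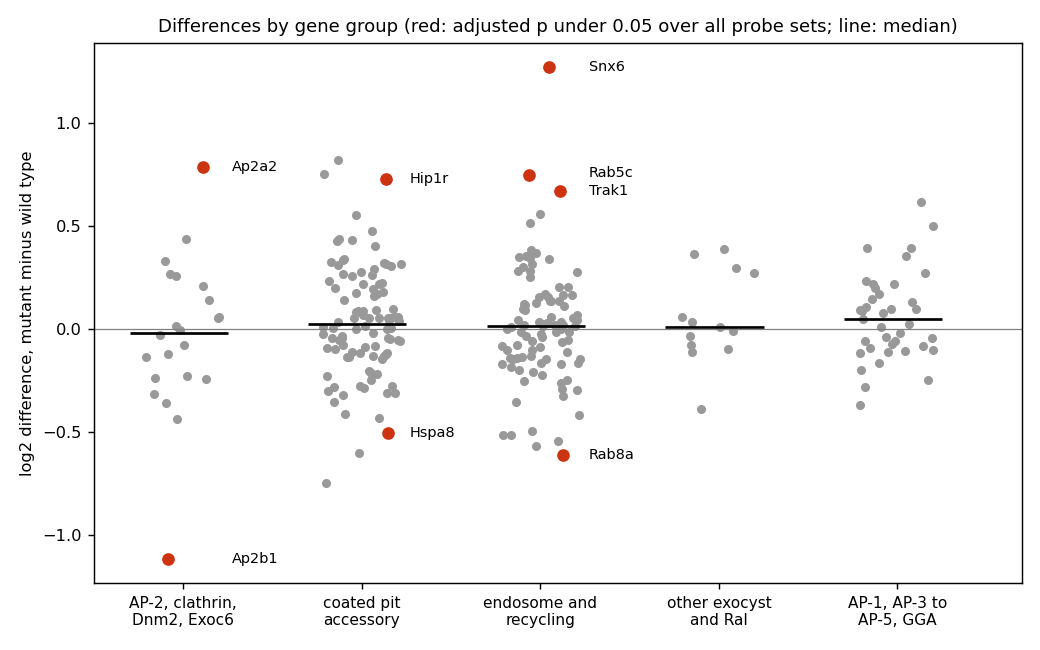
Log2 difference, mutant minus wild type, of each probe set in the endocytosis genes and in the 4 further gene groups, with probe sets past an adjusted p of 0.05 in red and the group's median as a line. All 5 medians lie between -0.02 and 0.05, and Ap2b1, at -1.12, and Snx6, at 1.27, are the farthest from 0.

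The probe set profiles most like that of Ap2b1 1452292_at over the 6 arrays, by Pearson correlation, were those of Hbp1 (r = 0.999, difference -1.09), Srsf5 (r = 0.998, difference -0.60) and Mvb12a (r = 0.998, difference -0.39). The 6 points fall into the groups of the study, and these were the highest of the 20380 values, so the correlations are a description only.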

How the data were processed

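The deposited values are log2 expression per probe set. The authors made them with GCOS and Affymetrix Expression Console by RMA, per the submitters' processing notes, a method that corrects background, normalises by quantiles and summarises probes. The sources used here give no versions and do not say which arrays were normalised as a set. The platform annotation names probe sets, 20380 with 1 symbol, 691 with several and 1555 with none. No probe or transcript coordinates were used.

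The group difference was fitted with limma 3.58.1 (R 4.3.3), using lmFit and eBayes without covariates, over all 22626 probe sets that are no controls. Two-sided p-values were adjusted after Benjamini and Hochberg and a probe set was called under 0.05. Differences are mutant minus wild type with the fit's SE. The number of arrays limits the precision. On simulated data for this comparison (22626 probe sets, 200 changed), 83% of log2 changes of 1 were recovered with equal spread and 64% where each group kept its own. False calls numbered 7 with equal spread and 46 where each group kept its own. In these data the SD among mutant arrays was the larger for 76.7% of probe sets, so the adjusted p can understate false calls.

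The members and lists were chosen with earlier results of these data known. The text names all member probe sets, up to 6 genes with a called probe set per further list, otherwise the 2 with the lowest p, and 8 fixed genes (Tfrc, Cltb, Hspa8, Aak1, Rab5c, Rab11a, Snx3, Vps35), while 1 other is not reported here. It also names the 3 genes most correlated with Ap2b1. The same was planned for Picalm. Alternatives covered normalisation, a filter on dim probe sets, the variance prior, array weights, the replicate block, gene-level values, the threshold and each array left out. Tables and figures were made in Python 3.11.15 (pandas 2.3.3, matplotlib 3.10.9).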

Additional observations from a re-analysis of the deposited data

Results flagged for a closer look

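A pair of probe sets annotated to both Exoc6 and Sh3glb1 stands outside the 22 probe sets, since it carries more than 1 symbol. Both read higher on every mutant array than on any wild type array, as did 11.4% of all probe sets tested. The difference was 0.45 ± 0.141 (log2, SE) for 1435631_x_at and 0.38 ± 0.107 for 1455385_at, with adjusted p of 0.15 and 0.12 (limma), so neither passed the test. The wild type arrays read 7.01 to 7.17 and 7.0 to 7.09, and the mutant arrays 7.26 to 7.76 and 7.25 to 7.53. The probe sets annotated to Sh3glb1 alone differed by 0.04, 0.22 and -0.04, and those annotated to Exoc6 alone by 0.06 and -0.08. The groups overlapped on each of these. Which of the annotated genes the shared pair reads was not tested.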

How the results depend on the processing

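The 2 called member probe sets became 5 with array weights, 4 at an adjusted p under 0.10, 1 with the replicate block, 1 with the probe set of highest mean per gene and 0 with the mean of a gene's probe sets. From array weights on, the 6 called pathway probe sets became 32, 17, 1, 0 and 0 in the same order. Over the whole table there were 2667 calls with array weights (11.8%) and 112 with the block (0.495%). There were 41 with the highest probe set (0.331%) and 47 with the mean (0.379%). No share over all probe sets was counted at 0.10, so nothing is read from the counts there. In the pathway the 2 gene-level fits gave 25 and 27 genes at an unadjusted p under 0.05 (limma), against 2158 and 2107 of 12393. Leaving out 1 array gave 0 to 4 and 0 to 35, against 36 to 2544 calls over the whole table. Ap2b1 1452292_at was called in every fit over probe sets except those without wild type replicate 1 or 2 (adjusted p 0.071 and 0.077, limma). The members were chosen on this contrast and these fits reuse the same arrays, so the repeated calls are a description and no test. Same-numbered arrays deviated together only slightly, with correlations of 0.0281 to 0.0555 against -0.0781 to 0.0232 for the other pairs across groups. The replicate numbers were not taken to pair the samples. No called member probe set changed sign under any alternative. Of all 22, 0 to 2 turned sign in each fit over probe sets, and 6 differed in sign from the mean of their gene. Without mutant replicate 1 the sign of Ap2a2 1435869_s_at (0.12) and Dnm2 1432005_at (0.07) turned, and quantile normalisation without controls turned Ap2a2 1452490_a_at (-0.04) and Dnm2 1437938_x_at (-0.0036). The cause of these changes was not tested. With 3 arrays per group, a change of 1 on the log2 scale can be missed, as the simulated recovery shows.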
